A study of Mus musculus with 4 samples.

Results

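Fibroblast-like cells of the embryonic mouse arcuate nucleus (ARC) sample were selected on their own unique molecular identifiers (UMIs, each standing for 1 captured transcript molecule). A barcode was kept when it showed between 200 and 4500 genes, had no more than 10% of its UMIs from mitochondrial genes, and held no more than 10 UMIs of the haemoglobin gene Hba-a1. A kept cell was fibroblast-like when its UMIs of Col1a1, Lum and Dcn summed to at least 3, with at most 3 UMIs of the neuronal gene Stmn2 and fewer than 2 UMIs of the endothelial genes Cldn5 and Pecam1 together. These limits selected 112 of 6351 kept cells, a share of 1.76% (exact binomial interval 1.45 to 2.12%). By the GENCODE annotation of the mm10 build, Col1a1 lies at chr11:94936224-94953042, Lum and Dcn side by side at chr10:97565128-97572703 and chr10:97479609-97518143, and Tcf21 at chr10:22817281-22820174. Of the 112 cells, 26 carried at least 1 UMI of Tcf21 and 86 carried none.

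The study profiled the hypothalamic ARC at embryonic day 15 (E15) to chart neuronal types while their fates are being set. Tissue from pooled Pomc-eGfp embryos on a C57BL/6 background, which carry a green fluorescent reporter for Pomc, was dissociated with papain and passed through a droplet platform as 1 library, which was sequenced in 4 runs. There was no second condition, genotype or age, and the cells of all embryos share 1 library. A comparison between kinds of cell therefore has 1 sample a group: no test was made, and every interval given (95%) covers counting error only. The deposited matrix held 6465 barcodes and 26277265 UMIs, and 0 barcodes were repeated. The fibroblast-like cells held 508155 UMIs, with a median of 3920 per cell (1893 to 16412) and a median of 1668.5 detected genes, against a median of 3328 UMIs in the 6239 other kept cells. The sample labels call the cells arcuate nucleus neurons, and the neuronal markers of the fibroblast-like cells, given further on, went against that name.

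Leptomeningeal cells form the pia and arachnoid membranes around the brain, and fibroblasts of the same lineage follow blood vessels inward. They lay down fibrillar collagen and the basement membrane that anchors the end-feet of radial glia, and they secrete the chemokine Cxcl12, retinoic acid and bone morphogenetic proteins toward the neural tissue. Head mesenchyme comes from neural crest and mesoderm, and forkhead, T-box and basic helix-loop-helix factors mark its subdivisions. Tcf21, a basic helix-loop-helix factor, is known from the mesenchyme of kidney, lung and heart.

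The upstream sequences of a pair of transcription factor genes are shown because both genes were enriched in the fibroblast-like cells while, within them, Tbx18 was lower where Tcf21 was detected, as described further on. They run 5′ to 3′ on the gene's strand from 250 to 51 bases before the RefSeq start (build GRCm38.p6). Capitals mark the E-box CANNTG, the word that basic helix-loop-helix factors such as Tcf21 and Twist1 bind. The word equals its own reverse complement, so 1 search covers both strands. The first lies at chr10:22820194-22820393 (minus strand), the second at chr9:87731311-87731510 (minus strand).
Tcf21: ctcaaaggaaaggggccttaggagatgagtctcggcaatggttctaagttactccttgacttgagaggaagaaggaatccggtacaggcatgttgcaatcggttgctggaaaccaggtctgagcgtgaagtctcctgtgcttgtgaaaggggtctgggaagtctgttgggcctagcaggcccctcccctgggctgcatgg
Tbx18: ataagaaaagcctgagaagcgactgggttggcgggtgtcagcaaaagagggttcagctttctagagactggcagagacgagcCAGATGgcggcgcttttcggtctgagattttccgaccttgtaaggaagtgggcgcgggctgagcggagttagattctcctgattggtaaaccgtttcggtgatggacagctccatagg
The Tcf21 stretch held 0 E-boxes and the Tbx18 stretch held 1, CAGATG. Among 32851 mouse promoters of the same length, 59.05% held at least 1.

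The values that chose the cells are a description. Col1a1, which encodes a chain of type I collagen, was detected in 110 of the 112 cells, Dcn (decorin, a small proteoglycan that binds collagen fibrils) in 79, Lum (lumican, of the same proteoglycan family) in 46, and all 3 genes together in 35. The sum of the 3 genes had a median of 8.5 UMIs per cell and reached 47. Cell numbers declined from a sum of 0 to a sum of 4, with no gap at the limit, and then varied. Among cells within the Stmn2 and endothelial limits, 2857 had a sum of 0, 67 had 1 and 24 had 2. Sums of 3, 4, 5, 6, 7 and 8 had 21, 7, 12, 2, 8 and 6 cells. A sum of 9 or more was found in 56 cells. The 24 cells just outside held 727 CPM (UMIs scaled to 1000000 per group) of Col3a1, 781.6 CPM of Mgp, 45.4 CPM of Pdgfra and 109 CPM of the mural gene Kcnj8, from 12 UMIs in 3 cells. The 21 cells just inside held 681 CPM of Col3a1, 657 CPM of Mgp, 158 CPM of Pdgfra and 0 CPM of Kcnj8. Another 11 cells reached the collagen and proteoglycan sum but exceeded the Stmn2 limit, and 0 exceeded the endothelial limit.

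**Figure D1:**
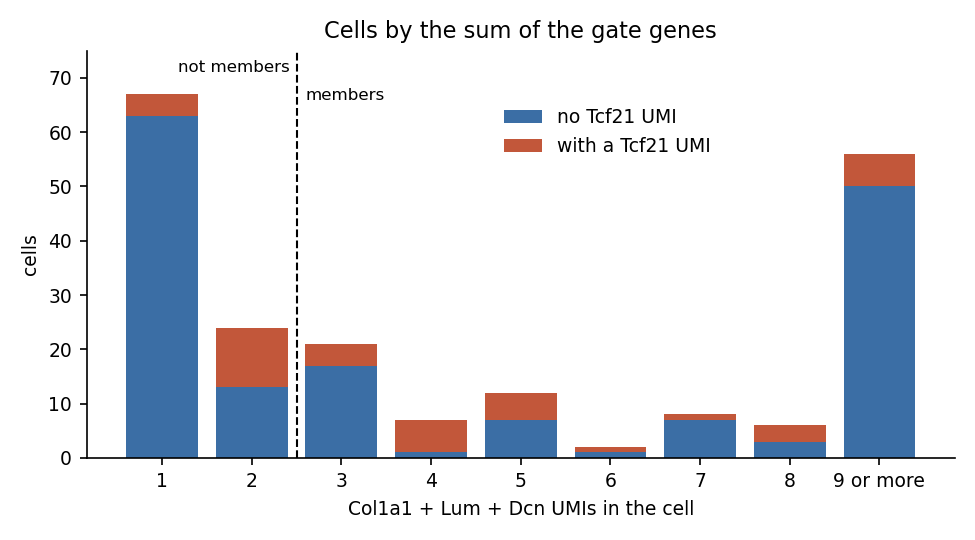
Number of kept cells at each summed UMI count of Col1a1, Lum and Dcn from 1 to 9 or more, for cells that met the Stmn2 and endothelial limits, with cells carrying a Tcf21 UMI stacked in red and the selection limit as a dashed line. Cell numbers go from 24 at a sum of 2 to 21 at a sum of 3, and 11 of the 24 cells just outside the limit carried a Tcf21 UMI.

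Pdgfra and Tcf21, which go with the name fibroblast-like, were not among the genes that selected the cells, but both were picked as markers with earlier results known, so their levels are a description. Pdgfra, the platelet-derived growth factor receptor of fibroblasts, reached 134 CPM from 68 UMIs against 4.01 CPM in the other kept cells, 33.3-fold (24.1 to 46.0), and had 0 UMIs in 20 endothelial-like cells (at least 2 UMIs of Cldn5 and Pecam1) and in 43 mural-like cells (at least 3 UMIs of Rgs5, Kcnj8 and Abcc9). It was detected in 34.8% of the fibroblast-like cells, or 25% after every cell was thinned to 2167 UMIs. Tcf21 reached 84.6 CPM (61.2 to 114) from 43 UMIs, 51.9-fold (32.9 to 82.2) over the other cells at 1.63 CPM. A Tcf21 UMI was found in 23.2% of the fibroblast-like cells, 11.1% after thinning, and in 0.153% of the 3271 neurons (cells with over 3 Stmn2 UMIs), where the median depth was 3616 UMIs against 3920.

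Against all other kept cells, a gene was compared when the mean of its CPM in both groups was at least 20, and was called when its pooled CPM differed by more than 2-fold. Of 6357 genes compared, 817 (12.9%) were higher in the fibroblast-like cells and 1081 (17.0%) were lower, and the median log2 ratio over all of them was -0.13. With ratios centred on that median, 926 were higher and 929 lower. The lists of matrix genes lay almost wholly on the higher side, whereas neuronal and pituitary genes lay on the lower side. The filter shapes such counts: a gene low in 1 group passes only through a high level in the other, which fixes its direction. In the collagen processing list, Adamts2 was compared at 39.4 against 0.836 CPM. Bmp1, at 19.7 against 18.1 CPM, was not compared.

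**Figure D2:**
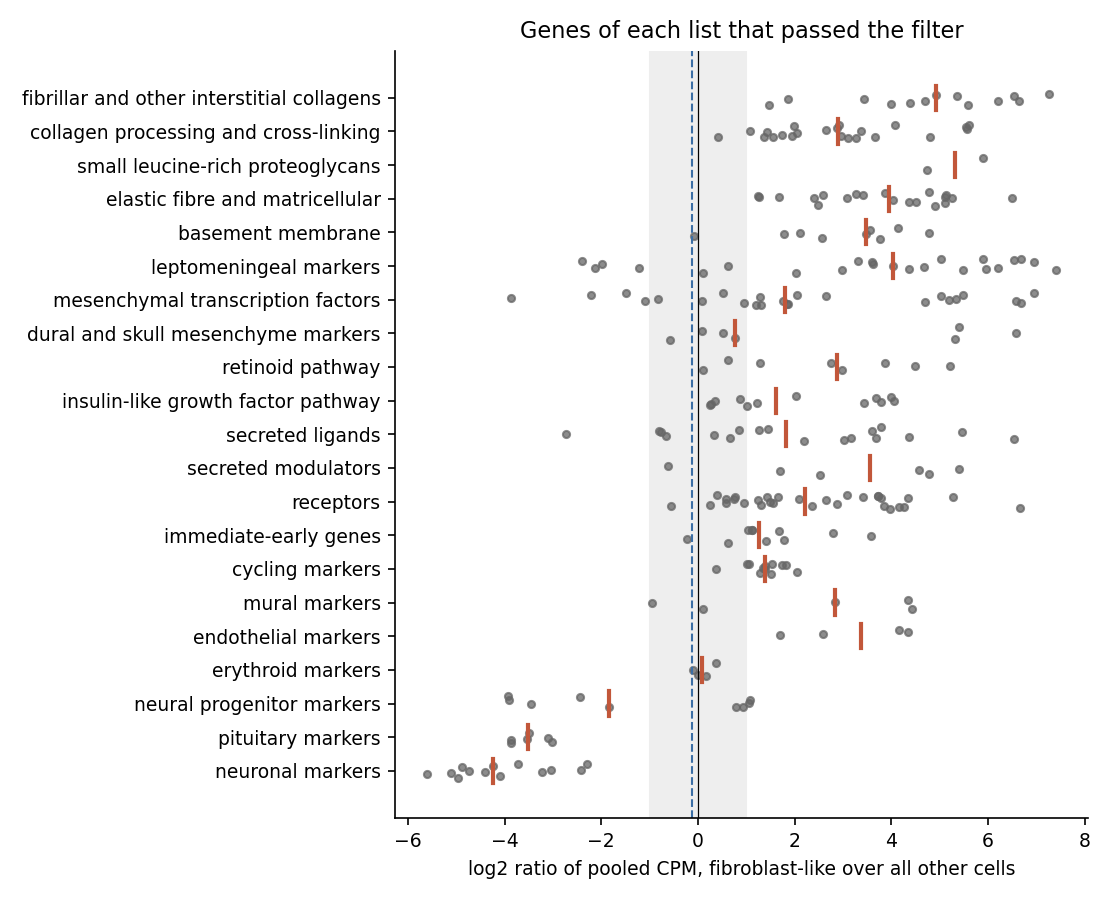
Log2 ratio of pooled CPM, fibroblast-like over all other kept cells, for each compared gene (points) and the median (red bars) of each gene list, with differences under 2-fold shaded and the median of all genes as a dashed line. The collagen list has its median at 4.93 and the neuronal list at -4.23.

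Fibrillar and other interstitial collagens lay on the higher side in every gene compared. All 13 compared genes of a 16-gene collagen list were higher, with a median log2 ratio of 4.93. The filter favours such a count for genes near 0 in the other cells. The whole list, with no filter, summed to 4420 CPM against 117 CPM in the other cells. Col1a1, Lum and Dcn had chosen the cells and are on none of the lists, and their ratios of 265-, 272- and 159-fold are a description of the rule. Col3a1, the chain of type III collagen, held 807 UMIs, or 1588 CPM (1480 to 1702), in 95.5% of the cells, and exceeded the other cells 101-fold (88.8 to 114). The Col3a1 ratio was 65.2-fold against other Stmn2-low cells only. Its level in the mural-like cells was 235 CPM and in the endothelial-like cells 0. Col1a2, the partner chain of Col1a1, was 73.7-fold higher (65.0 to 83.6). Col6a1, a chain of the beaded-filament collagen around cells, was 155-fold higher (100.2 to 245) and its partner Col6a2 93.4-fold (68.5 to 129), while Col11a1, a minor chain of cartilage-type fibrils, was 2.79-fold higher (1.91 to 3.94).

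Genes that process and cross-link collagen followed, with 21 of 22 compared genes of a 28-gene list higher and a median log2 ratio of 2.90. The whole list, with no filter, summed to 4780 CPM here, 4440 CPM in endothelial-like and 4597 CPM in mural-like cells. Serpinh1, the collagen chaperone of the endoplasmic reticulum, was 12.7-fold higher at 1102 CPM (11.6 to 14.0), a level also seen in endothelial-like (1043 CPM) and mural-like (1356 CPM) cells. Pcolce, an enhancer of procollagen C-proteinase, was 48.6-fold higher (38.6 to 61.3), and Lox, which cross-links collagen and elastin, 47.5-fold (36.2 to 62.3). The lysyl hydroxylase gene Plod3, at 1.33-fold, was the single compared gene of the list that did not pass 2-fold.

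All 20 compared genes of the elastic fibre and matricellular list, which names 33, were also higher, with a median of 3.95. Postn (periostin, a matricellular protein of connective tissue) was 89.9-fold higher (61.7 to 133), Mfap5, a microfibril component, 34.9-fold (23.0 to 52.7), and Fn1, fibronectin, 27.6-fold (22.8 to 33.4). Ogn, a further small leucine-rich proteoglycan, was 59.5-fold higher (37.1 to 96.3), and Bgn, biglycan, 26.7-fold (22.8 to 31.1). The level of Bgn was no higher than in vascular cells, as it stood at 521 CPM here, 592 CPM in endothelial-like cells and 1378 CPM in mural-like cells. In the basement membrane list, 8 of 9 compared genes were higher, led by the laminin chain gene Lamb1 at 27.3-fold (20.6 to 36.1). Col4a1, a chain of basement membrane collagen, was 11.8-fold higher at 340 CPM (9.96 to 14.0) but stood at 1591 CPM in endothelial-like and 1393 CPM in mural-like cells, and Agrn, agrin, was at 0.947-fold.

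Transcription factors of mesenchyme were divided. Of 24 compared genes in a 50-gene list, 16 were higher, 4 were lower and the median log2 ratio was 1.80. The list summed to 3217 CPM here, 1399 CPM in endothelial-like and 3512 CPM in mural-like cells. Tbx18, a T-box factor of mural and mesenchymal lineages, held 45 UMIs, 125-fold over the other cells (69.9 to 232), and 79.1-fold with mitochondrial UMIs limited to 5%. The forkhead gene Foxc2 was 102-fold higher (56.3 to 194) and its relative Foxc1, required for the meninges to form, 44.9-fold higher at 240.1 CPM (34.7 to 58.0). Foxc1 was detected in 60.7% of the fibroblast-like cells, 40.7% after thinning, and in 0.367% of neurons. Twist1, the mesenchymal basic helix-loop-helix factor, was 36.9-fold higher (21.9 to 61.7), Foxd1 32.4-fold (22.3 to 47.0), and Foxf2 40.6-fold (29.0 to 56.7). Foxf2 also stood at 163 CPM in endothelial-like and 176 CPM in mural-like cells, above its 136 CPM here. The lower genes included Tcf7l2 at 0.216-fold, Msx1 at 0.354-fold and Zfhx4 at 0.465-fold.

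The leptomeningeal list was higher in most of its members, with 17 of 23 compared genes of 38 higher, 4 lower and a median log2 ratio of 4.04. Cldn11, a claudin of the arachnoid barrier and of oligodendrocytes, held 221 UMIs, or 435 CPM (379 to 496), and was 103-fold higher (81.0 to 132) with 0 UMIs in mural-like and endothelial-like cells. Gjb6, which encodes a connexin of meningeal cells and astrocytes, was 171-fold higher from 29 UMIs (76.1 to 432). Cxcl12, the meningeal chemokine, was 93.2-fold higher at 366 CPM (72.3 to 121), and Slc6a13, a GABA and taurine transporter of leptomeningeal cells, 74.2-fold higher (44.3 to 126) from 41 UMIs in 15 cells. The Slc6a13 ratio was 25.4-fold with mitochondrial UMIs limited to 5%. It was 42.2-fold with at most 1 Stmn2 UMI, a limit that took out 2 fibroblast-like cells. Ptgds, prostaglandin D synthase of the arachnoid, was 16.4-fold higher (12.9 to 20.7), but 58 of its 100 UMIs came from 1 cell and 66 from 2. Bmp7 was 12.2-fold higher (8.41 to 17.4) and the gap junction gene Gja1 9.95-fold. Aldh1a2, the retinoic acid synthesis enzyme of the meninges, was at 29.5 CPM against 27.6 CPM, 1.07-fold (0.595 to 1.78). The lower genes included Zic1, 2.35-fold lower (1.81 to 3.09) at 114 against 268 CPM, Zic4, 4.36-fold lower, and the imprinted gene Nnat, 5.25-fold lower (4.88 to 5.67). Because of Nnat, at 1383 against 7268 CPM, the sum over the whole list was lower in the fibroblast-like cells, at 5355 CPM, than in the other kept cells, at 8079 CPM, or in neurons, at 7967 CPM, and does not stand for a leptomeningeal level.

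Several ratios depended on which cells were selected and which stood in the comparison. Against other cells with at most 3 Stmn2 UMIs only, Cldn11 was 61.1-fold higher, Tbx18 59.1-fold, Cxcl12 55.0-fold, Foxc1 23.5-fold and Pdgfra 16.8-fold. At equal depth Pdgfra was 50.5-fold higher. Requiring at most 1 Stmn2 UMI left 110 fibroblast-like cells, without the 2 cells that held 2 Stmn2 UMIs. It took Cldn11 from 103- to 66.2-fold, Tbx18 from 125- to 63.6-fold and Slc6a13 from 74.2- to 42.2-fold. These ratios leaned in part on those 2 cells, and whether the cells were doublets was not tested. Igf2 moved to 10.1-fold. Foxc1 (42.4-fold), Pdgfra (32.2-fold), Cxcl12 (81.7-fold) and Col3a1 (91.0-fold) stayed within their intervals. A sum limit of 2 took Cldn11 to 158-fold.

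Single cells carried several of these genes at once. Of 9 leptomeningeal markers (Foxc1, Foxd1, Tbx18, Zic1, Slc6a13, Aldh1a2, Cldn11, Ptgds and Lama1), at least 2 were detected in 82 of 112 fibroblast-like cells, 73.2% (64.0 to 81.1%), or 52.8% after thinning. The share was 3.89% in the other kept cells (1.84% thinned) and 2.32% in neurons (1.15% thinned), which should lack most of the 9, although Zic1 alone had a UMI in 35.9% of neurons. Mural-like cells stood between, at 46.5%, or 35.5% thinned. At least 4 of the 9 were found in 27 fibroblast-like cells, 24.1%. Of the 15 cells with a Slc6a13 UMI, 10 held Tbx18, 10 held Bmp7, 8 held Ptgds and 0 held Tcf21, where 22, 20, 11 and 26 of all 112 cells held those genes.

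**Figure D3:**
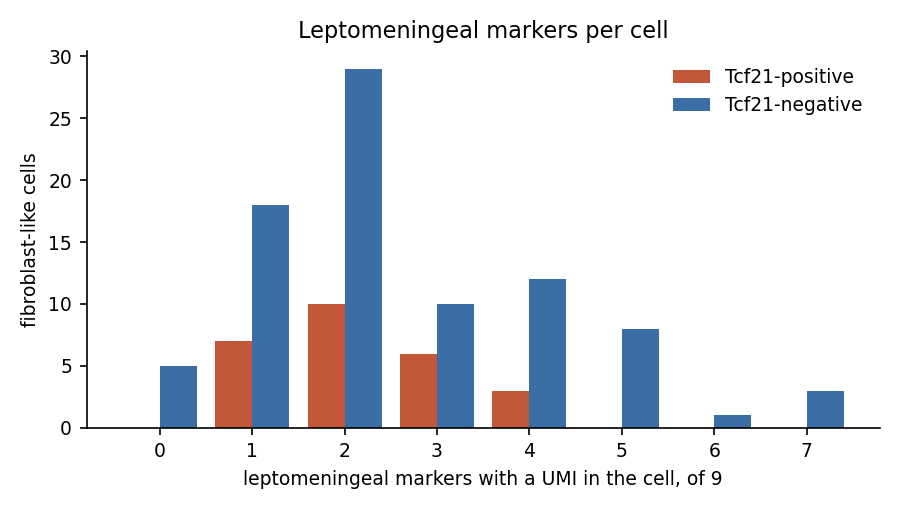
Number of Tcf21-positive (red) and Tcf21-negative (blue) fibroblast-like cells by how many of 9 leptomeningeal markers had a UMI in the cell, from 0 to 7. Tcf21-positive cells reach at most 4 markers, and 8, 1 and 3 Tcf21-negative cells have 5, 6 and 7.

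Retinoid genes other than Aldh1a2 stood mostly on the higher side, with 6 of 8 compared genes of 20 higher and a median log2 ratio of 2.87. Dhrs3, which reduces retinaldehyde, was 37.4-fold higher (26.7 to 52.4), the retinoic acid receptor gene Rarb 22.4-fold (17.0 to 29.4), the retinol carrier gene Stra6 14.6-fold, and Rdh10, which makes retinaldehyde from retinol, 7.94-fold (5.56 to 11.1). Cyp26b1, which degrades retinoic acid, had 0 UMIs in the 112 cells, which allows up to 5.90 CPM. Crabp2 did not pass 2-fold, at 1.54. The insulin-like growth factor list had 8 of 12 compared genes higher, with a median of 1.62. Its sum was no higher than in vascular cells, at 3595 CPM here, 4581 CPM in endothelial-like and 3666 CPM in mural-like cells. The fetal growth factor gene Igf2 was 12.9-fold higher (10.6 to 15.6), but 6.21-fold with mitochondrial UMIs limited to 5%, 7.10-fold with no upper limit on genes and 6.75-fold against other Stmn2-low cells only. The neighbouring non-coding H19 was 10.9-fold higher, Igf1 13.8-fold (8.91 to 20.7), and the binding protein genes Igfbp4 and Igfbp7 16.0- and 16.7-fold. Igfbp7 stood higher in mural-like cells, at 2420 CPM, than in the fibroblast-like cells, at 687 CPM.

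Among secreted ligands, 11 of 18 compared genes were higher, 1 was lower and the median log2 ratio was 1.83. Mdk, midkine, was at 1474 CPM against 322 CPM, 4.58-fold (4.25 to 4.94), the related Ptn at 1.58-fold, Gdf10, a divergent TGF-beta family member, 44.0-fold higher (25.6 to 75.5) and Wnt5a 2.75-fold higher. Kitl, the ligand of the Kit receptor, was the lower one, 6.68-fold (2.86 to 20.6). Of the extracellular modulators, 5 of 6 compared genes were higher, including the Wnt antagonist gene Dkk2 at 42.0-fold (31.3 to 56.3) and the secreted collagen-repeat gene Cthrc1 at 23.9-fold (19.8 to 28.8). Over all compared genes, 12.9% were higher. A list of dural and skull mesenchyme markers had 3 of 7 compared genes of 20 higher, 0 lower and a median of 0.77. The higher genes included Dkk2 and Mgp, which encodes matrix Gla protein, an inhibitor of mineralization. Mgp held 340 UMIs in 50 cells, 40.1-fold over the other cells (34.6 to 46.5), and 83 of its UMIs came from 2 cells. The receptor list summed to 3586 CPM here, 2975 CPM in endothelial-like and 3710 CPM in mural-like cells. Against all other cells, receptors were higher in 22 of 30 compared genes with 0 lower and a median of 2.22. The integrin gene Itga8 led them at 101-fold (63.4 to 164), and others were the collagen receptor gene Ddr2 at 38.8-fold, Pdgfrb at 20.3-fold (14.9 to 27.5), the Cxcl12-scavenging receptor gene Ackr3 at 15.7-fold (9.22 to 25.8) and the glypican gene Gpc3 at 13.9-fold. Pdgfrb, a pericyte receptor as well, stood at 124 CPM here and at 513 CPM in mural-like cells.

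Markers of the other cell types of the preparation were followed as whole lists. All 13 neuronal genes were lower, with a median log2 ratio of -4.23 and a summed level of 499.9 CPM against 7991 CPM in the other kept cells. The limit on Stmn2 sets part of that difference, and in the remaining Stmn2-low cells the sum was 2975 CPM. Tubb3, the neuronal tubulin, was at 57.1 against 1526 CPM in the other cells, 26.7-fold lower (18.6 to 39.9). All 6 compared pituitary genes of 12 were lower, at 96.4 against 1052 CPM summed, and Pomc, 11.6-fold lower (7.80 to 18.1), still had a UMI in 16.1% of the cells. The neural progenitor list had 5 of 9 compared genes lower and 2 higher. Over all compared genes, 17.0% were lower and 12.9% higher. The macrophage list summed to 5.90 CPM with 6 of 8 genes at 0, and the erythroid list stood at 291 CPM against 289 CPM. Vascular genes were partly present. In the mural list 3 of 5 compared genes were higher, Vtn, Pdgfrb and Abcc9, and all 4 compared endothelial genes were. The mural list summed to 441 CPM against 9099 CPM in mural-like cells with Rgs5 at 25.6 against 3512 CPM, a level that their selection on Rgs5, Kcnj8 and Abcc9 helps to set, and the endothelial list to 411 CPM against 5565 CPM in endothelial-like cells, with 6 of 15 genes at 0, the endothelial receptor gene Kdr and the junction gene Esam among them. Some of these signals came from few cells: 28 fibroblast-like cells carried a Stmn2 UMI, 7 carried 1 UMI of Cldn5 or Pecam1, and 5 also met the limit for mural-like cells. Leaving out those 5 cells gave 810 higher and 1065 lower genes against all other cells. The part of vascular transcripts in the other ratios was not tested.

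Lists of cell state, cycling and immediate-early genes, were mostly higher than in all other kept cells together, of which 3271 were neurons. Of 12 cycling genes 11 were higher, with a summed level of 899 CPM against 348 CPM in the other kept cells, 114 CPM in neurons, 629 CPM in the remaining Stmn2-low cells, 999 CPM in endothelial-like cells and 1122 CPM in mural-like cells, and at least 3 of them were detected in 391 of the 6239 other cells, 6.27%. Of 10 immediate-early genes 8 were higher, at 5189 CPM against 1973 CPM, and the mural-like cells stood at 9143 CPM. Fos, which responds to stimulation and to tissue dissociation, was 3.21-fold higher (3.001 to 3.42).

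By the size of the ratio, the leading genes were mostly matrix and transcription factor genes already described. Other genes among the 20 leading ones were Ctsk, the collagen-degrading cathepsin, 109-fold higher (54.99 to 227), Pax9, a paired-box gene of pharyngeal and skull-base mesenchyme, 107-fold (50.8 to 241), Tfap2b, a factor of neural crest, 104-fold (54.7 to 205), the non-coding Dnm3os 98.4-fold (46.1 to 224), Nupr1 92.5-fold (58.2 to 150) and the T-box gene Tbx1 89.9-fold (41.4 to 206). These ratios rested on between 21 UMIs (Tbx1) and 57 UMIs (Nupr1) in the fibroblast-like cells. Nupr1 was detected in mural-like cells as well, at 125 CPM.

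The 26 Tcf21-positive cells were then set beside the 86 Tcf21-negative ones. The split was made on Tcf21 itself, which had 1 UMI in 15 cells, 2 in 6, 3 in 4 and 4 in 1, so that a cell with Tcf21 transcripts can fall in the negative group through limited depth. The Tcf21-positive cells held 139676 UMIs at a median depth of 4569.5, and the Tcf21-negative cells 368479 UMIs at a median of 3856. Of 2918 genes with a mean of at least 50 CPM, 152 (5.21%) were over 2-fold higher in the Tcf21-positive cells and 193 (6.61%) over 2-fold lower, and the median log2 ratio was 0.01. At the 50 CPM limit a gene had about 6.98 UMIs in the Tcf21-positive cells, so single ratios near the limit are coarse. Here too, a gene low in 1 group passes the filter only through a high level in the other, which shapes list counts.

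**Figure D4:**
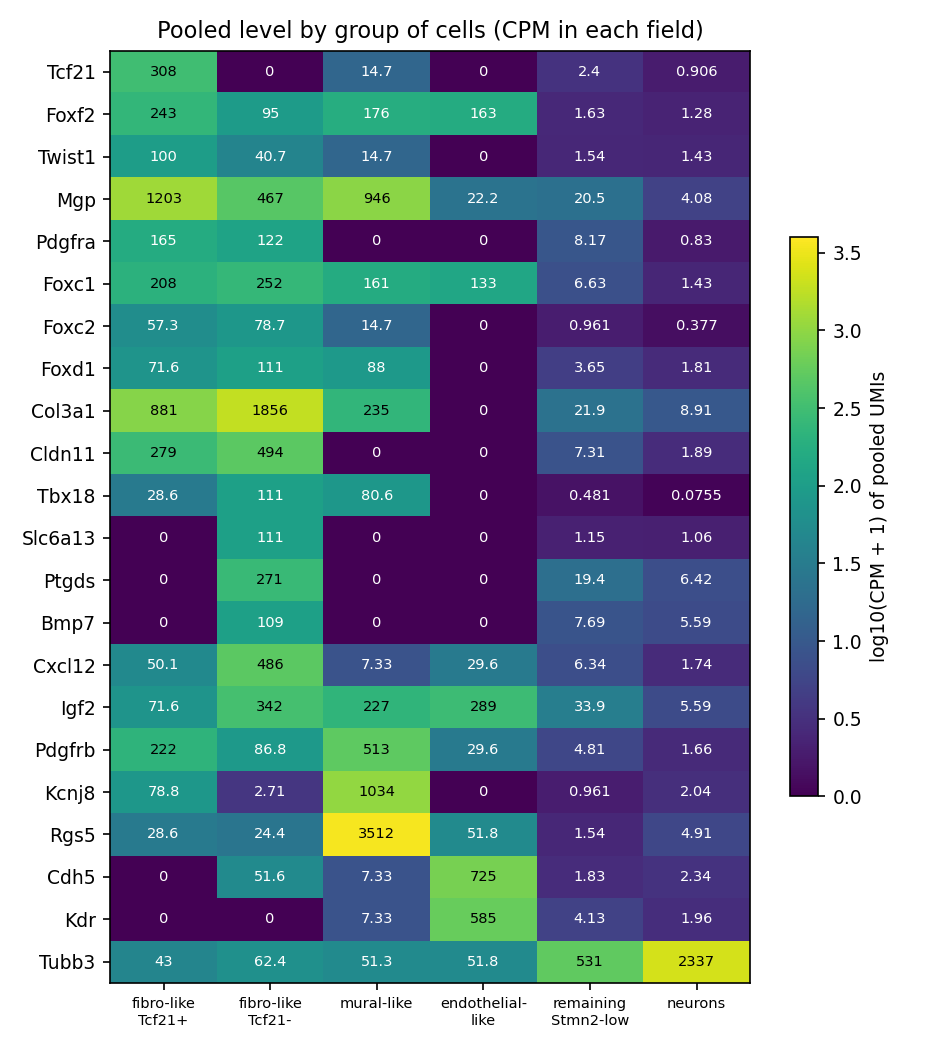
Pooled level of 22 genes (rows) in 6 groups of cells (columns), with the CPM printed in each field and colour showing log10(CPM + 1). Pdgfra stands at 165 and 122 CPM in Tcf21-positive and Tcf21-negative fibroblast-like cells and at 0 in mural-like and endothelial-like cells, while Cxcl12 stands at 50.1 CPM in the positive and 486 CPM in the negative group.

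Several mesenchymal genes did not pass 2-fold between the groups. Pdgfra stood at 165 CPM in Tcf21-positive against 122 CPM in Tcf21-negative cells, 1.35-fold (0.779 to 2.28), and was detected in 12 of 26 and 27 of 86 cells. Foxc1 was at 208 against 252 CPM, 0.823-fold (0.523 to 1.26), Foxc2 at 0.728-fold (0.287 to 1.63) and Foxd1 at 0.643-fold (0.287 to 1.31). All of these intervals include 1, and they also include differences of over 1.5-fold. The processing list had 0 of 16 genes past 2-fold, with Serpinh1 at 0.992-fold, and Bgn (1.16-fold) and Mdk (1.03-fold) were nearly as close.

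Transcription factor and receptor genes went both ways between the groups. Of 18 compared mesenchymal transcription factor genes, 4 were higher in the Tcf21-positive cells and 2 lower, with a median log2 ratio of -0.25. Of 19 compared receptor genes 2 were higher and 3 lower, with a median of -0.22. Of all compared genes, 5.21% were higher and 6.61% lower. The lower receptor genes were Fgfr1, Axl and the endosialin gene Cd248, and the lower factor genes were Creb3l1 and Tbx18. Foxf2 was at 243 against 94.98 CPM, 2.56-fold (1.55 to 4.23), with UMIs in 17 of 26 and 30 of 86 cells. Twist1 stood at 2.46-fold (1.10 to 5.47) and Tfap2b at 2.20-fold (1.03 to 4.62), each from few UMIs, as their wide intervals show. Nr2f1, an orphan nuclear receptor gene, was 2.44-fold higher. Pdgfrb was at 222 against 86.8 CPM, 2.56-fold (1.51 to 4.33), and Itga8 at 2.47-fold (1.44 to 4.23). Of 7 compared retinoid genes, Dhrs3 was the higher one, 2.34-fold (1.39 to 3.90), Crabp2 and Rara were over 2-fold lower, and the median log2 ratio was -0.38. Thinning every cell to equal depth took Foxf2 to 1.46-fold, Pdgfrb to 1.38-fold and Dhrs3 to 1.90-fold, and a limit of 2 instead of 3 on the collagen and proteoglycan sum took Dhrs3 to 1.57-fold.

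**Figure D5:**
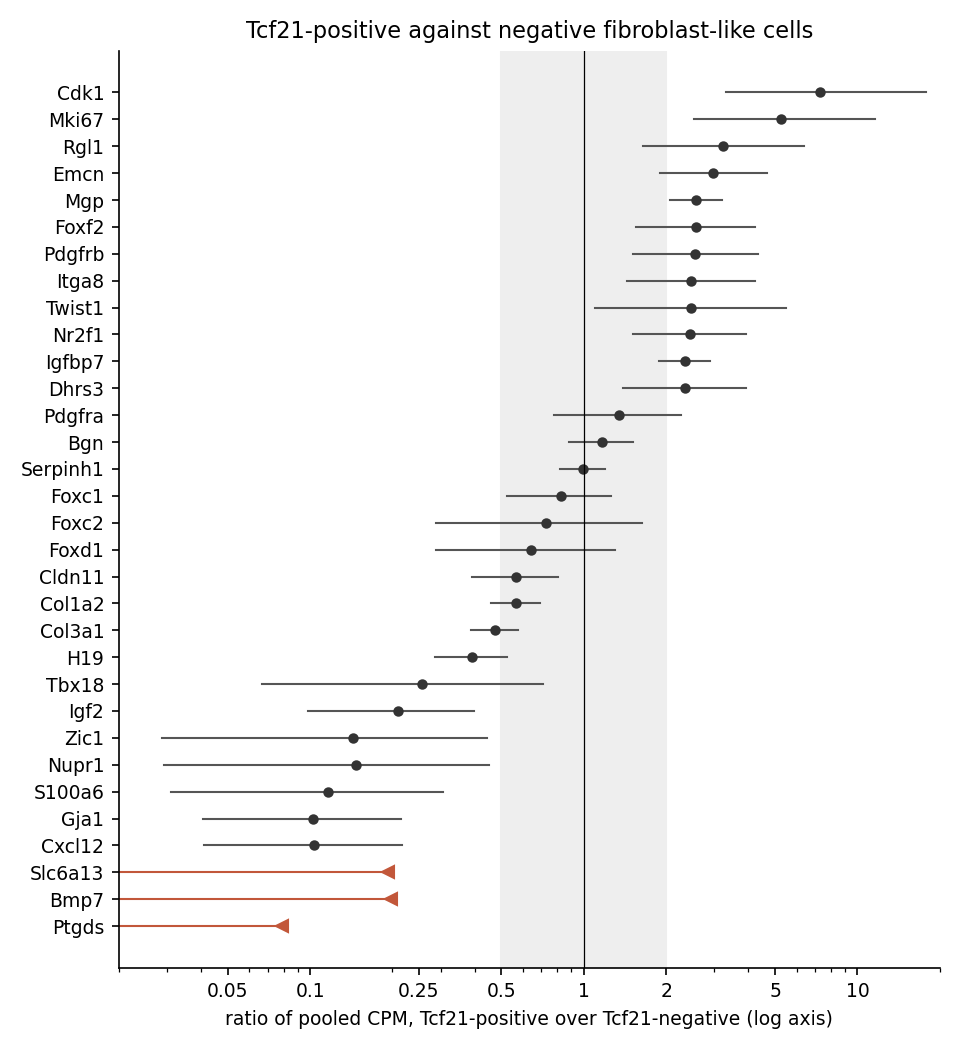
Fold ratio of pooled CPM (log axis), Tcf21-positive over Tcf21-negative fibroblast-like cells, with 95% counting intervals, for leading and listed genes (red arrows mark genes with 0 UMIs in the Tcf21-positive cells, drawn at the bound that 3 UMIs give, and ratios under 2-fold are shaded). Mgp lies at 2.58, Pdgfra at 1.35, and Slc6a13, Bmp7 and Ptgds have bounds only.

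Mgp was at 1203 CPM in the Tcf21-positive and 467 CPM in the Tcf21-negative cells, 2.58-fold (2.07 to 3.21), in 21 of 26 and 29 of 86 cells. It is also a mural gene in this library, at 946 CPM in mural-like cells. Of the 5 fibroblast-like cells that also met the mural limit, 3 were Tcf21-positive, and the 5 held 91 of the 340 Mgp UMIs. Without these 5 cells the Mgp ratio was 1.48, and with no Cldn5 or Pecam1 UMI allowed it was 1.71. Igfbp7, at 1174 against 502 CPM, 2.34-fold (1.88 to 2.90), took 67 UMIs from the same 5 cells and was at 2.06-fold without them and at 1.93-fold with no endothelial UMI allowed. The endothelial sialomucin gene Emcn, 2.97-fold (1.90 to 4.66), and the ATP-sensitive potassium channel genes Abcc9, 3.63-fold (1.33 to 10.4), and Kcnj8, 11 against 1 UMIs in 3 and 1 cells, are vascular markers too, with 10 Abcc9 and 10 Kcnj8 UMIs in those 5 cells. Without them Emcn was at 3.04-fold. The summed mural list stood at 494 CPM in Tcf21-positive and 421 CPM in Tcf21-negative cells. Within that list Vtn, vitronectin, at 931 CPM in mural-like cells, was 14.0-fold lower in the Tcf21-positive cells (3.75 to 118), from 2 against 74 UMIs.

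Of all genes compared, 5.21% were higher in the Tcf21-positive cells. Cell cycle genes led the Tcf21-positive side, with 6 of 10 compared cycling genes higher, 0 lower and a median log2 ratio of 1.09. Their summed level was 1468 against 684 CPM, but 65 of the 205 cycling UMIs of the Tcf21-positive cells came from 1 cell, and the median per cell was 1 against 0.5 UMIs. Cdk1, the mitotic kinase, was at 179 against 24.4 CPM, 7.33-fold (3.31 to 17.8), with 17 of its 34 UMIs in 2 cells. It was 4.21-fold higher with a sum limit of 5 and 12.01-fold where 2 Tcf21 UMIs were required. Mki67 was 5.28-fold higher (2.54 to 11.6), and 8.15-fold where 2 Tcf21 UMIs were required. Cenpa, the centromeric histone, was 4.06-fold higher, Hmgb2 2.66-fold and H2afx 2.58-fold. At least 3 cycling genes were detected in 10 of 26 Tcf21-positive cells, 38.5% (20.2 to 59.4%), and in 12 of 86 Tcf21-negative cells, 14.0% (7.42 to 23.1%). These intervals overlap. After thinning the shares were 32.0% and 8.43%. The other leading genes of this side, Rgl1 at 3.22-fold (1.65 to 6.38) and Tsnax at 2.93-fold, are on none of the lists.

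On the lower side in the Tcf21-positive cells stood matrix and leptomeningeal genes. Of all compared genes, 6.61% were over 2-fold lower and 5.21% over 2-fold higher. In the collagen list 6 of 11 compared genes were lower, 0 higher, with a median log2 ratio of -1.08 and summed levels of 2756 against 5051 CPM. The lower genes were Col3a1, 2.11-fold lower (1.74 to 2.58) at 881 against 1856 CPM, Col11a1, 6.07-fold lower (1.55 to 52.2), Col5a2 and the beaded-filament genes Col6a1, Col6a2 and Col6a3, while Col1a2 was at 0.566-fold. Col3a1 lay close to the 2-fold limit and missed it under 4 alternatives, at 0.509- to 0.537-fold. The selecting genes Col1a1, Dcn and Lum, 2.43-, 2.56- and 4.43-fold lower, are a description here as well, and the Tcf21-positive cells lay closer to the selection limit, with a median sum of 5 against 11. The elastic and matricellular list had 4 of 17 lower with a median of -0.80. They were Mfap5, 7.77-fold (2.02 to 66.3) from 2 UMIs against 41, the basement membrane linker gene Nid2, Postn, 2.07-fold (1.14 to 4.08), and the fibulin gene Fbln1.

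In the leptomeningeal list 9 of 18 compared genes were lower and 0 higher, with a median of -1.46. Of all compared genes, 6.61% were lower. Summed levels, which include the neuronally abundant Nnat, were 2692 against 6364 CPM. Cxcl12 was 9.69-fold lower (4.61 to 24.5), Gja1 9.75-fold lower (4.63 to 24.6) but at 0.253-fold with mitochondrial UMIs limited to 5%, 0.176-fold without the cells over 8000 UMIs and 0.0678-fold with no endothelial UMI allowed, S100a6 8.62-fold lower (3.25 to 32.3), Zic1 6.95-fold lower (2.26 to 34.7; at 0.217-fold with a sum limit of 2 and 0.0936-fold where 2 Tcf21 UMIs were required) and Tbx18 3.89-fold lower (1.41 to 14.9). Igf2, the imprinted growth factor, was 4.78-fold lower (2.51 to 10.2), with ratios from 0.0817-fold where 2 Tcf21 UMIs were required to 0.419-fold under the 5% mitochondrial limit. Ptgds, Slc6a13 and Bmp7 were among the genes with 0 UMIs in the 26 cells. A count of 0 allows a level of up to 21.5 CPM and a captured UMI in up to 11.5% of such cells. It does not bound cells whose transcripts were not captured. Ptgds had 100 UMIs in 11 Tcf21-negative cells, 58 of them in 1 cell. Slc6a13 (41 UMIs in 15 cells) was at least 5.18-fold lower and Bmp7 (40 UMIs in 20 cells) at least 5.05-fold lower. These bounds set 3 UMIs against the count in the Tcf21-negative cells and leave out the counting error of the latter. Cxadr, an adhesion receptor gene, was at least 10.4-fold lower and Ppp1r1a, a phosphatase inhibitor gene, at least 8.84-fold lower. The phospholipid transfer gene Pltp was 7.01-fold lower and the stress-response gene Nupr1 6.82-fold lower. Cldn11 differed less, at 0.565-fold (0.389 to 0.803), and was detected in 19 of 26 Tcf21-positive cells. At least 2 of the 9 leptomeningeal markers were found in 73.1% of Tcf21-positive and 73.3% of Tcf21-negative cells, whereas at least 4 were found in 3 cells (11.5%) and 24 cells (27.9%). After thinning, at least 2 were found in 44.0% and 55.4%, and at least 4 in 0 of 25 Tcf21-positive cells, which allows up to 12%, and in 15.7% of Tcf21-negative cells. The cells with 5 or more markers were Tcf21-negative.

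Tcf21 was not limited to the selected cells. Of 49 kept cells with a Tcf21 UMI, 23 lay outside the limits: 17 among the remaining Stmn2-low cells, 5 among neurons and 1 among mural-like cells. Their sum of Col1a1, Lum and Dcn had a median of 2, and they held Col3a1 at 480.2 CPM and Mgp at 654 CPM, against 15.8 and 16.7 CPM in all cells outside the limits. Slc6a13 had 0 UMIs in these 23 cells, as in the 26 selected ones.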

How the data were processed

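Cells from the E15 ARC of pooled Pomc-eGfp embryos formed 1 droplet library that was sequenced in 4 runs, which were treated as 1 sample. The authors deposited a matrix of UMI counts for 27998 genes, and the submitters' processing notes name Cell Ranger 2.1.1, STAR 2.4.0, Seurat 2.0 and the mm10 build. Barcodes were filtered and cells selected by the limits given in the report, which left out 114 barcodes. UMIs were pooled over the cells of a group and scaled to 1000000 UMIs of that group (CPM). Levels carry exact Poisson intervals, shares exact Clopper-Pearson intervals and ratios conditional exact binomial intervals, all at 95%. The intervals of levels and ratios treat UMIs as independent and leave out variation between cells. None of the intervals covers variation between embryos or libraries. A count of 0 was set to 3 UMIs for a bound. For equal depth, each cell was thinned once at random to 2167 UMIs, the 10th percentile of all kept cells, which left out 4 fibroblast-like cells. No model was fitted and no test run, since each group is 1 sample. No doublet caller was run.

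Genes named are those of the lists and limits, the 20 with the largest ratios against all other cells and the 12 in each direction between Tcf21-positive and Tcf21-negative cells, each with at least 20 UMIs and a UMI in at least 10% of the higher group. A few genes that this rule names are not reported here. The members and the gene lists were chosen with earlier results of these data known, so a list's counts are a description and no independent support. The fibroblast-like, mural-like and endothelial-like names rest on selecting genes and not on clustering. Alternatives varied the limits on the selecting genes, Tcf21, mitochondrial UMIs and the upper number of genes (the lower number of genes and the Hba-a1 limit were not varied), the gene filter, the depth, the scaling and the comparison cells. The cells with over 8000 UMIs were left out in an alternative chosen after seeing the data. Scripts ran in Python 3.11.15 with numpy 2.4.6, scipy 1.17.1 and pandas 2.3.3. The counting scripts were tested on simulated independent counts, which cannot show the effect of variation between cells. Promoter sequences came from RefSeq, which in the table used held none for Col1a1, Lum or Dcn.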

Additional observations from a re-analysis of the deposited data

How the results depend on the processing

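The number of fibroblast-like cells was 136 with a limit of 2 on the summed Col1a1, Lum and Dcn UMIs and 84 with a limit of 5. The share with Tcf21 was 11.1% at equal depth and 11.3% when 2 Tcf21 UMIs were required and cells with 1 were left out. Lowering the gene filter to 5 CPM gave 1691 genes higher and 2325 lower in the fibroblast-like cells, and requiring only 1 UMI in each group gave 2612 and 2451. Lower filters let in genes with few UMIs. The number of genes compared was not recorded at these settings, so the counts cannot be read as shares. Between Tcf21-positive and Tcf21-negative cells, the genes higher numbered 101 with a sum limit of 2, 339 at equal depth, 320 with 2 Tcf21 UMIs, 1145 at 5 CPM and 1491 with 1 UMI in each group. The genes lower numbered 317 at equal depth, 1183 at 5 CPM and 1161 with 1 UMI in each group, which leaves out genes at 0 in either group. The cause of these moves was not tested. The remaining 58 values of these summary results stayed within 1.5 times the reported count of genes, or within the binomial interval of the cell number and the share, with the 9 deepest cells left out among them. Of the single-gene ratios, 37 moved beyond their interval, 313 did not. Of these ratios 1 changed its direction: Foxc1, at 0.823-fold between Tcf21-positive and Tcf21-negative cells, was at 1.004-fold with a sum limit of 5, and neither value passed 2-fold. Cxcl12 lay between 0.0863- and 0.137-fold in Tcf21-positive cells under all alternatives. Genes that no longer passed 2-fold included Mgp (1.48) without the 5 cells that also met the mural limit, Foxf2 (1.46), Pdgfrb (1.38) and Dhrs3 (1.90) at equal depth, Igfbp7 (1.93) with no endothelial UMI, and Col3a1 at 0.510 with a sum limit of 5, 0.509 with mitochondrial UMIs at most 5%, 0.537 at equal depth and 0.524 as a mean over cells. The 5% mitochondrial limit also moved Slc6a13, Igf2, Gja1 and Tbx18 by over 1.5 times, as given with those genes.

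No paired analysis was possible because the series has 1 library with no groups that share replicate numbers, and leaving out a replicate was not possible either. The 26 Tcf21-positive cells limit precision: a gene at 50 CPM has about 6.98 UMIs there.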

Other observations

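The neural crest and Schwann list was mostly at the edge of detection in the fibroblast-like cells. Of 10 genes 3 passed the level filter, of which Tfap2b and Ets1 were higher and 1 was lower. Sox10, the Schwann and crest factor gene, had 0 UMIs in the 112 cells and 20 UMIs in the other kept cells. The 0 allows a captured UMI in up to 2.68% of such cells and does not bound cells whose transcripts were not captured.

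The following genes are on the lists used, and they and the single cell were picked out after their values were seen. Of all 112 cells 86 were Tcf21-negative, the share against which the next counts stand. Slc22a6, an organic anion transporter gene, had 15 UMIs in 9 fibroblast-like cells, all Tcf21-negative, and 0 UMIs in all other kept cells. With that 0 counted as 3 UMIs the ratio was 235-fold, without the counting error of the 15 UMIs. Osr1, a mesenchymal zinc-finger gene, had 18 UMIs in 10 fibroblast-like cells, all Tcf21-negative, against 3 UMIs in the other kept cells, 282-fold (82.5 to 1497). Both had mean levels below the filter. All 122 UMIs of Ttr, the transthyretin gene of choroid plexus, in the fibroblast-like cells came from 1 Tcf21-negative cell, the deepest of them, with 16412 UMIs and 4375 genes. Of 8 epithelial and choroid plexus genes, Ttr and the keratin gene Krt18, which was lower, were the 2 compared. The cell with Ttr held a sum of 7 for Col1a1, Lum and Dcn.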
